A study of Mus musculus with 30 samples.

Results

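Gene expression in blood 2 h after auditory fear conditioning was compared with that of home cage mice, in 5 FC and 4 HC libraries of the 30 libraries of the series. The comparison covered the 11701 gene entries, of 23303 deposited, whose mean over these 9 libraries was at least 0.5 FPKM (fragments per kilobase of transcript, scaled to the depth of each library). All mice were C57BL/6J males of 2 to 3 months. HC mice were handled and taken out of the vivarium without training. FC mice received 5 pairings of a tone with a footshock. A further 5 libraries came from Immo+FC mice, which were immobilized for 2 h a week before the same conditioning, and their values are given side by side, compared with the same HC libraries. Each library came from trunk blood pooled from 2 mice after isoflurane and decapitation, with globin transcripts depleted, so a library is a mixture of all cells in that blood. The labels do not say in which lane a library was run.

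Blood RNA comes from red cell precursors, platelets, granulocytes, monocytes and lymphocytes. Acute stress releases adrenaline and corticosteroids, which are known to shift leukocytes between vessel walls, marrow, lymphoid organs and the circulation within minutes to hours. Perforin and granzymes are carried by natural killer cells and cytotoxic T cells, CX3CR1-bearing nonclassical monocytes patrol the vessel wall, and both hormones raise the number of circulating neutrophils. Fewer cells of a type and less RNA per cell cannot be told apart in bulk blood. Blood cell counts that the study took from its pools are not analysed here. The study reported that the makeup of blood cells did not differ between its HC and FC groups.

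The deposited mapping table gave 9081977 to 20101794 total sequences for HC libraries and 19442415 to 24075999 for FC libraries. FC libraries were deeper on average (two-sided exact permutation test over 126 splits, p = 0.02381), and leaving out any library but HC replicate 3 took p above 0.05. The share of reads mapped to a single place was 68.3% ± 5.00 (SD, n = 4) in HC and 67.5% ± 1.79 (SD, n = 5) in FC (exact permutation p = 0.7778). HC replicates 3 and 4 stood apart from the other blood libraries. Their mean Pearson correlations to the other 13 blood libraries, on log2(FPKM + 0.1), were 0.928 and 0.936, against 0.952 to 0.963 for the rest. Globin entries took 7.65% and 6.84% of all FPKM in them, 1.87% and 2.00% in HC replicates 1 and 2, and 1.53% to 2.74% in FC. HC replicate 4 was also the shallowest library. Results are therefore given with all libraries and, where a named value moved by over 1.5 times or turned, without HC replicates 3 and 4. The latter fit keeps only HC replicates 1 and 2 as controls. A call lost there cannot be told apart from a loss of power with fewer controls. Blood cell markers were present in every HC and FC library, as for Cd79a of B cells at 348 to 936 FPKM and Ccl5 of T and natural killer cells at 323 to 502 FPKM.

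Against this background, 4 genes fell in FC blood (0.0342% of those tested) and 0 rose (0%) at an adjusted p under 0.05 by limma. At a p below 0.05 before adjustment, 504 genes were higher (4.31%) and 741 lower (6.33%) in FC. All FC libraries lay above all HC libraries for 189 genes (1.62%) and below them for 287 (2.45%). The median log2 fold change over all tested genes was -0.02. Without HC replicates 3 and 4 the limma test called 1 gene lower and 0 higher, and at a p below 0.05 before adjustment it gave 724 higher and 324 lower, so the excess of lower over higher genes turned round.

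**Figure D1:**
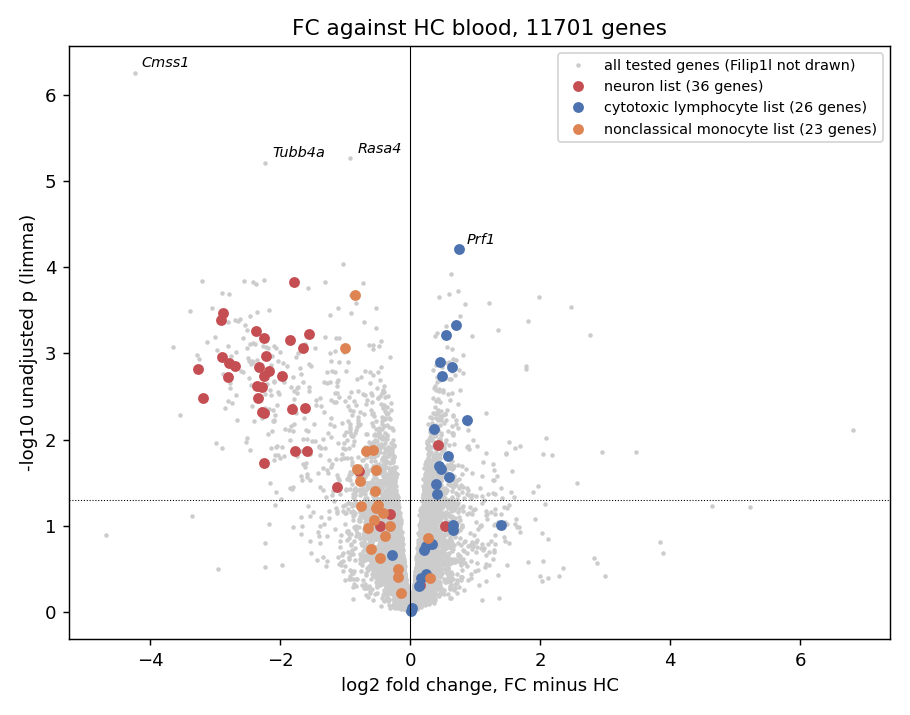
Each point is 1 of the 11701 tested genes, with the log2 fold change of FC minus HC blood on the horizontal axis and the -log10 unadjusted p of limma on the vertical axis (dotted line at 0.05). Filip1l is not drawn. Members of the neuron list (red) lie to the left with a median of -2.23, and the cytotoxic lymphocyte list (blue) to the right with a median of 0.45. Of the 36 neuron members, 12 reached the minimum in HC only, and the median of the other 24 was -1.78.

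Filip1l and Cmss1 were the pair with the smallest adjusted p, and they overlap in the genome. Filip1l, which encodes a protein named for its likeness to a filamin A binding protein, lies on the plus strand of chromosome 16 (mm10, 57353093 to 57573126), inside the span of Cmss1 on the minus strand (57302000 to 57606864). Filip1l was at 37.1, 50.9, 33.7 and 38.9 FPKM in the HC libraries and was listed at 0 in all 5 FC and all 5 Immo+FC libraries (limma adjusted p = 3.66e-11). Cmss1 was at 1.12, 2.59, 1.19 and 2.94 FPKM in HC and was also listed at 0 in all 10 others (limma adjusted p = 0.00327). Cmss1 had a mean under 1 FPKM and was named after its values were seen. Both genes reached the minimum of 0.5 FPKM in HC only. No fold change is given, since an exact 0 in an FPKM table can be a failed estimate, and whether the counting used strand is not stated in the sources used here. In amygdala, which was normalised separately, Filip1l was at 0.733 ± 0.227 FPKM in HC and 0.780 ± 0.113 in FC, and Cmss1 at 5.93 ± 0.486 and 5.96 ± 0.673 (SD, n = 6 each). Neither gene was listed at 0 in all libraries of a group there. Only Filip1l of the 4 calls was also called without HC replicates 3 and 4 (adjusted p = 4.8e-06).

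Rasa4, a GTPase activating protein that turns Ras off after calcium signals, lies on chromosome 5 (mm10, 136083916 to 136111860, plus strand). It was at 9.83, 12.6, 13.8 and 12.8 FPKM in HC and at 5.29, 6.76, 6.82, 6.63 and 6.38 in FC. The groups did not overlap, and the 5 FC libraries lay within 2 FPKM of each other. The log2 fold change was -0.93 (SE 0.13, limma adjusted p = 0.018), and Immo+FC libraries lay at 5.61 to 7.65 FPKM. The difference was -0.80 without HC replicates 3 and 4 and no longer past the threshold (adjusted p = 0.272). Leaving out any 1 FC library of replicates 1 to 4, or HC replicate 3 or 4, also took the adjusted p of Rasa4 above 0.05, with values up to 0.0793.

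Tubb4a, a beta tubulin isotype of neurons and myelinating glia, lies on chromosome 17 (mm10, 57080066 to 57087782, minus strand). It was at 3.92, 1.82, 3.96 and 7 FPKM in HC and at 0.781, 0.537, 0.583, 0.871 and 0.893 in FC. Every FC library was below every HC library, with HC replicate 2 the lowest and HC replicate 4 the highest of the controls. The log2 fold change was -2.24 (SE 0.32, limma adjusted p = 0.018), and -1.76 without HC replicates 3 and 4 (adjusted p = 0.239). With 1 library left out, Tubb4a stayed past the threshold in only 2 of 9 fits, those without HC replicate 2 or FC replicate 5. The highest adjusted p of the 9 fits was 0.0812. Tubb4a was at 255 ± 11.6 FPKM in HC amygdala and 271 ± 17.1 in FC amygdala (SD, n = 6), far above its level in any blood library. With the mean of the neuron list as a covariate its log2 fold change was -1.27 and that of Rasa4 -0.86 (limma adjusted p = 0.999 for both). Prf1 and Nrgn also had an adjusted p of 0.999 in this fit. The covariate itself ranged from 1.17 to 2.64 in HC and from -0.41 to 1.38 in FC. It largely followed the groups, so the fit cannot set these genes apart from others.

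Most neuronal genes were lower in FC blood. The neuron list holds vesicle, cytoskeletal and channel genes. Of its 36 tested members, 12 reached the minimum of 0.5 FPKM as a mean in HC only, so that they had to be higher there. Of the other 24, whose mean reached it in both groups, 19 were lower and 1 higher at a p below 0.05 before adjustment, with a median log2 fold change of -1.78. Over all 36, 31 were lower and 1 higher at a p below 0.05 before adjustment, against 6.33% and 4.31% of all genes, and 0 passed the adjusted threshold. The median log2 fold change of the 36 was -2.23, against -0.02 over all genes, and -1.64 without HC replicates 3 and 4. All FC libraries lay below all HC libraries for 8 of the 36, against 2.45% of all genes. These 36 include the 12 that reached the minimum in HC only. The Immo+FC libraries, set against the same HC libraries, gave a median of -2.06.

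Snap25, a SNARE that fuses vesicles at the synapse, had 11.7, 3.60, 14.5 and 16.5 FPKM in HC and 1.89, 0.142, 1.17, 0.526 and 4.21 in FC (log2 fold change -3.20, SE 0.91, limma adjusted p = 0.158). HC replicate 2 lay below FC replicate 5, so the groups overlapped. Syn2, which tethers vesicles, was at 2.97, 0.954, 4.71 and 3.02 FPKM in HC and at 0.338, 0.186, 0.0645, 0.172 and 0.929 in FC (-2.89, SE 0.62, adjusted p = 0.109), without overlap. Kif1a, the motor of synaptic vesicle precursors, gave -2.37 (adjusted p = 0.114) and Eef1a2, the elongation factor of neurons and muscle, -2.91 (adjusted p = 0.109). Syn2 and Kif1a, with FC means of 0.338 and 0.286 FPKM, reached the minimum in HC only, so they had to be higher there.

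The same direction held for several of the genes with the smallest p of the whole table. Tppp, a microtubule bundling protein of oligodendrocytes, gave -2.25, the imprinted brain transcript entry Snrpn,Snurf -3.21 and Lypd1, a modulator of nicotinic receptors, -2.42, each with an adjusted p of 0.108. Tppp gave -1.42 without HC replicates 3 and 4. Tppp and Lypd1, with FC means of 0.346 and 0.274 FPKM, reached the minimum in HC only, so they had to be higher there. C1ql3, a secreted synapse organiser, was at 1.35 to 5.08 FPKM in HC and 0.0653 to 1.46 in FC (-2.57, adjusted p = 0.124). The median level in amygdala was 19.1 FPKM over the 741 genes lower at a p below 0.05 before adjustment, 7.76 over all tested genes and 4.83 over the 504 higher ones, a description with no test. The lower set includes genes that reached the minimum in HC only, and the higher set genes that reached it in FC only. Medians without such genes were not computed.

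Levels of this list varied within each group. Nrgn, abundant in platelets as well as neurons, and Thy1, also carried by T cells, made up 92.1% to 98.8% of the summed FPKM of the list over all blood libraries, and the sum of the other 34 members is more informative. That sum was 156, 81.6, 227 and 216 FPKM in HC and 62.2, 54.1, 43.1, 49.6 and 89.4 in FC. HC replicate 2 lay below FC replicate 5 and the other 3 HC libraries above every FC library. Nrgn itself was at 2540 to 4010 FPKM in HC and 2590 to 3970 in FC (0.15, SE 0.21, adjusted p = 0.843), and Thy1 gave 0.43 (adjusted p = 0.277). Nrgn gave 0.27 without HC replicates 3 and 4.

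Of 13 tested glial members 4 reached the minimum in HC only. Among the other 9, 3 were lower and 0 higher at a p below 0.05 before adjustment, against 6.33% and 4.31% of all genes, with a median of -0.15. Over all 13 the median was -0.48, and -0.13 without HC replicates 3 and 4. The astrocyte glutamate transporter Slc1a2 gave -2.52 (adjusted p = 0.114) and Aldoc -1.14 (adjusted p = 0.114). Slc1a2 is among the 4 members that reached the minimum in HC only. The myelin gene Mbp (-0.15, adjusted p = 0.714, and 0.03 without HC replicates 3 and 4) had overlapping HC and FC ranges. Ttr, the transthyretin of choroid plexus, was at 0.962, 1.58, 9.79 and 14.4 FPKM in HC and 0.373 to 1.65 in FC, so that only HC replicates 3 and 4 were high (-1.82, adjusted p = 0.426, and -0.24 without these 2). Of the other lists of cells outside blood, skeletal muscle had 1 of 10 members higher and 1 lower at a p below 0.05 before adjustment, and airway and skin 0 of 6. The part of these transcripts in the calls for Tubb4a and Rasa4 was not tested, since the neuron covariate largely followed the groups.

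**Figure D2:**
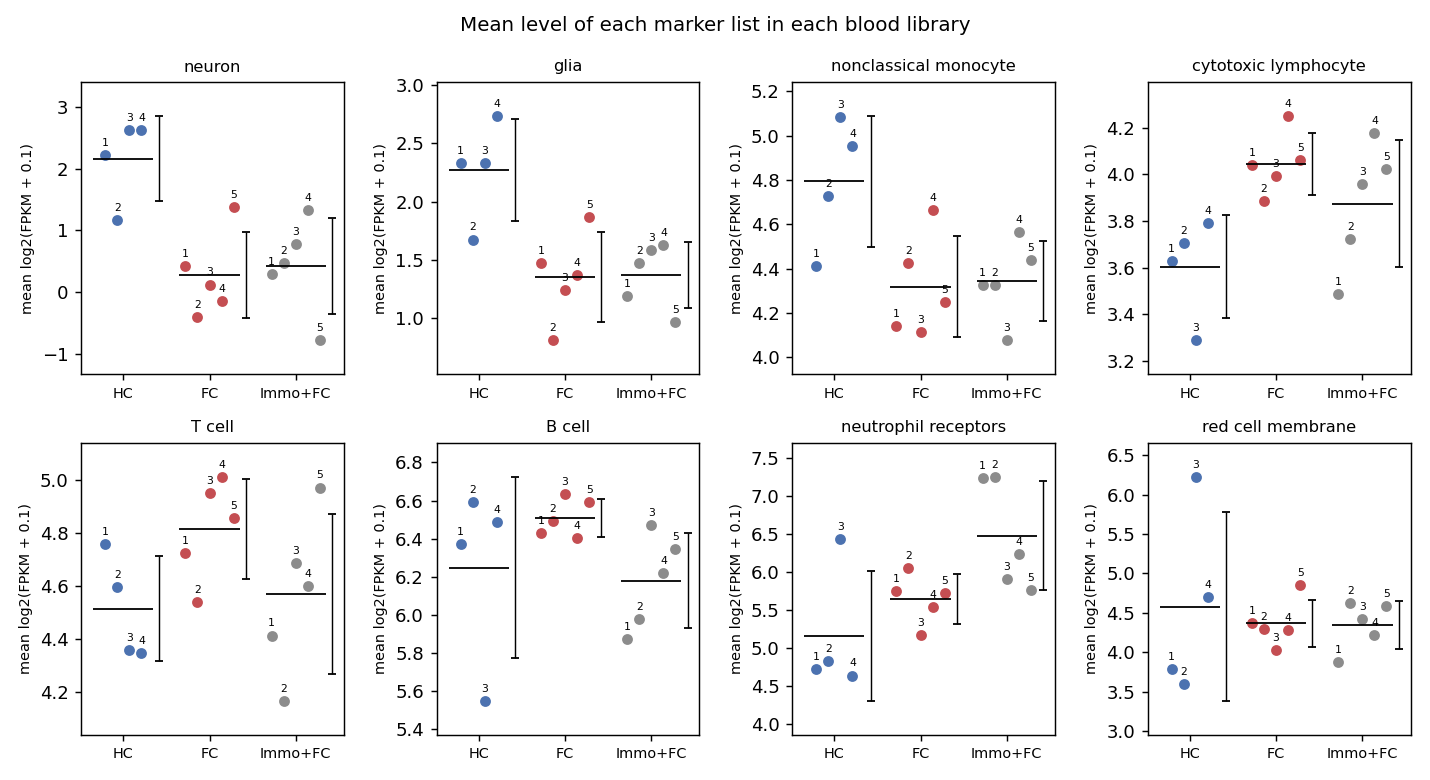
Mean log2(FPKM + 0.1) over the tested members of 8 marker lists in each blood library, with replicate numbers, group means (lines) and 1 SD (bars). The neuron mean ranges from 1.17 to 2.64 in HC and from -0.41 to 1.38 in FC, the cytotoxic mean from 3.29 to 3.79 and from 3.88 to 4.25, and HC replicate 3 is the highest library for the red cell membrane list. Of the 36 neuron members, 12 reached the minimum in HC only.

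Cytotoxic lymphocyte genes were higher in FC blood. Of 26 tested members, 14 were higher and 0 lower at a p below 0.05 before adjustment, against 4.31% of all genes. A positive log2 fold change was found for 25, and 0 passed the adjusted threshold. Of the 26, 1 reached the minimum in FC only, and 14 of the other 25 were higher, with a median of 0.44. All FC libraries lay above all HC libraries for 10 of the 26, against 1.62% of all genes. The median was 0.45, and 0.41 without HC replicates 3 and 4, and Immo+FC libraries gave 0.30 over the same HC libraries.

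Prf1, which encodes perforin, was at 15, 15.3, 14.8 and 10.9 FPKM in HC and at 23.4, 20.7, 24.8, 28.6 and 20.6 in FC. Its log2 fold change was 0.75 (SE 0.13, limma adjusted p = 0.108), and it had the smallest p of any gene that was higher in FC. Immo+FC libraries lay at 16.4 to 22.8 FPKM, also above every HC library, and the gene was listed at 0 in amygdala of both groups. Cst7, a cystatin that controls granule proteases, was at 11.2 to 15.1 FPKM in HC and 15.9 to 23.3 in FC (0.70, SE 0.16, adjusted p = 0.112). Nkg7, a granule membrane protein, was at 86.6 to 99.4 FPKM in HC and 111 to 143 in FC (0.46, SE 0.12, adjusted p = 0.121). Il2rb, the IL-2 and IL-15 receptor chain, gave 0.55 (adjusted p = 0.114), Tbx21, the T-bet transcription factor, 0.48 (adjusted p = 0.13), and Gzma, granzyme A, 0.58 (adjusted p = 0.302). In each of these 3 and in Ccl5 (0.37, adjusted p = 0.23) no FC library overlapped an HC library.

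The promoters shown are those of the 3 cytotoxic genes with the smallest p among those in the promoter table, chosen after their values were seen, so that the letters before a gene that differed can be read beside its levels. They hold 250 bases before and 50 after the start site in RefSeq (GRCm38.p6, plus strand), and capitals mark matches on either strand to AGGAAGT (an ETS family letter string), TGTGGT (RUNX) or AGGTGTGA (T-box), with no overlap between matches.
Prf1 (chr10:61297586-61297885): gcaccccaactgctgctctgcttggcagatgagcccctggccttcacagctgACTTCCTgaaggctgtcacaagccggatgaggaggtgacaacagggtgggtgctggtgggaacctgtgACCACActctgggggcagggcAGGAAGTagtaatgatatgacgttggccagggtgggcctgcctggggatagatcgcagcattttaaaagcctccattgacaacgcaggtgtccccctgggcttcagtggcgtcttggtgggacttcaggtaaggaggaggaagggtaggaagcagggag
Cst7 (chr2:150570165-150570464): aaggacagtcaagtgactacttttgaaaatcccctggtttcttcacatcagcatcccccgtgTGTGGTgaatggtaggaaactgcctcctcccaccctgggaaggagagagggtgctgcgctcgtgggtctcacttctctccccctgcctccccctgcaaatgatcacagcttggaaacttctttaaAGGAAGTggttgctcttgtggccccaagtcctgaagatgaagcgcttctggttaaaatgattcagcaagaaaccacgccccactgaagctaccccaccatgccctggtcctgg
Nkg7 (chr7:43436888-43437187): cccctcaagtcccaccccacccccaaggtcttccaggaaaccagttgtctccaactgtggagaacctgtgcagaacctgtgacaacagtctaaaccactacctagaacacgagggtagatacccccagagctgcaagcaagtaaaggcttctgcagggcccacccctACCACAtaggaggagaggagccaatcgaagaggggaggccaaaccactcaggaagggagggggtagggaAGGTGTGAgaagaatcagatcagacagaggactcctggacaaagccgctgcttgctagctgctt
Each held 1 RUNX string, Prf1 held 2 ETS strings and Cst7 1, and Nkg7 held 1 T-box string. Of all 32851 RefSeq promoters searched, 9.35% held the ETS string, 16.8% the RUNX string and 1.28% the T-box string. Of 21 promoters matched to 17 cytotoxic genes, 4, 14 and 1 held them. These counts describe letters and say nothing of binding.

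Of 28 T cell members, 10 were higher (4.31% of all genes were) and 0 lower at a p below 0.05 before adjustment (median 0.32), with a median of 0.15 without HC replicates 3 and 4. Cd8b1, the CD8 beta chain, was at 70.8, 66.1, 59.3 and 56.9 FPKM in HC and at 89.4, 85.7, 98.1, 99.0 and 102 in FC (0.59, SE 0.13, limma adjusted p = 0.114), without overlap. Lck, the kinase that starts T cell receptor signalling, gave 0.64 (adjusted p = 0.114), Cd3e 0.60 (adjusted p = 0.121) and Tcf7 0.64 (adjusted p = 0.242). HC replicates 3 and 4 were the lowest libraries for Lck, Cd3e and Tcf7, and without them Lck gave 0.39, Cd3e 0.35 and Tcf7 0.23. Of 24 B cell members, 7 were higher, beside the same 4.31%, and 0 lower at a p below 0.05 before adjustment (median 0.23), with a median of 0.06 without HC replicates 3 and 4. Vpreb3 gave 0.68 (adjusted p = 0.273, and 0.40 without these 2 libraries) and Cr2, the complement receptor CD21, 0.53 (adjusted p = 0.272). For Cd79a and Ms4a1 the HC libraries other than replicate 3 lay at 632 to 752 and 214 to 228 FPKM, beside 677 to 936 and 211 to 282 in FC, and HC replicate 3 at 348 and 107.

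Of 23 nonclassical monocyte members, 8 were lower (6.33% of all genes were) and 0 higher at a p below 0.05 before adjustment, 21 had a negative log2 fold change, and the median was -0.53 (-0.27 without HC replicates 3 and 4). The entry Ear12,Ear2, eosinophil-associated ribonucleases that monocytes also make, was at 95.8, 108, 114 and 116 FPKM in HC and at 48.8, 60.3, 58.3, 76.2 and 58.0 in FC (-0.86, SE 0.17, limma adjusted p = 0.108). The groups did not overlap, and the value of this merged entry cannot be divided between the 2 genes. Emr4, an adhesion receptor, was at 11.8 to 22.7 FPKM in HC and 6.70 to 11.4 in FC (-1.0, SE 0.24, adjusted p = 0.114). Treml4 gave -0.58 (adjusted p = 0.282) and Csf1r, the receptor for macrophage growth factor, -0.82 (adjusted p = 0.349), with HC replicate 3 at 122 FPKM beside 36.2 to 63.5 in the other HC libraries. Cx3cr1, the receptor for fractalkine, gave -0.54 (adjusted p = 0.431). Without HC replicates 3 and 4 Treml4 gave -0.27, Csf1r -0.37 and Cx3cr1 -0.32.

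The classical monocyte list had 3 of 24 members lower and 0 higher at a p below 0.05 before adjustment, against 6.33% and 4.31% of all genes, with a median of -0.46 that was 0.00 without HC replicates 3 and 4. Klf4, a transcription factor of monocyte differentiation, was at 13.8, 15, 14.3 and 14 FPKM in HC and at 8.69, 8.56, 7.92, 11.7 and 7.14 in FC (-0.71, SE 0.16, adjusted p = 0.109, and -0.73 without these 2 libraries). Fn1 gave -1.22 (adjusted p = 0.344), Lyz2 -0.46 (adjusted p = 0.751) and Ly6c2 -0.28 (adjusted p = 0.828). Both Lyz2 and Ly6c2 were highest of all HC and FC libraries in HC replicate 3 and turned to 0.04 and 0.26 without HC replicates 3 and 4, when Fn1 gave -0.74. Cd209a, a lectin of monocyte-derived dendritic cells, was at 8.76 to 17.8 FPKM in HC and 3.42 to 7.32 in FC (-1.22, SE 0.35, adjusted p = 0.162). Of 19 dendritic cell and MHC class II members 2 were lower and 0 higher at a p below 0.05 before adjustment (median -0.07), beside the same shares of all genes.

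Of 27 tested genes of lipid uptake and cholesterol 8 were lower, against 6.33% of all genes, and 0 higher at a p below 0.05 before adjustment (median -0.42, and -0.19 without HC replicates 3 and 4), and the list shares members with the monocyte list. Cyp27a1, the sterol 27-hydroxylase, was at 14.5, 24, 29.0 and 25.5 FPKM in HC and at 10.4, 13.6, 9.17, 11.4 and 10.7 in FC (-1.03, SE 0.19, limma adjusted p = 0.108), without overlap. Lpl, lipoprotein lipase, was at 6.83 to 12.5 FPKM in HC and 2.53 to 5.45 in FC (-1.13, SE 0.31, adjusted p = 0.142, and -1.30 without HC replicates 3 and 4). Lrp1 gave -1.12 (adjusted p = 0.273) and Fabp4 -0.68 (adjusted p = 0.289), and without these 2 libraries -0.62 and -0.41.

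Neutrophil receptor genes had mostly positive log2 fold changes, and HC replicate 3 was unlike the other controls. Of 27 neutrophil receptor members 25 had a positive log2 fold change and 3 were higher at a p below 0.05 before adjustment, against 4.31% of all genes. The median of 0.46 was 0.84 without HC replicates 3 and 4, and 1.45 for Immo+FC over the same HC libraries. Il1r2, the decoy receptor for IL-1, was at 4.88, 6.06, 19.5 and 4.63 FPKM in HC and at 23.5, 36.1, 12.9, 15.1 and 20.1 in FC (1.47, SE 0.53, limma adjusted p = 0.294). Only HC replicate 3 entered the FC range. Mmp9 (0.95, adjusted p = 0.449), Cxcr2 (0.71, adjusted p = 0.572) and the calcium-binding protein S100a8 (0.66, adjusted p = 0.714) also had HC replicate 3 as the only control within or above the FC range, with S100a8 at 13800 FPKM in HC replicate 3 beside 2100 to 2740 in the other HC libraries and 3770 to 9780 in FC. Without HC replicates 3 and 4 Mmp9 gave 1.43, Cxcr2 1.11 and S100a8 1.24. Il1rn, the IL-1 receptor antagonist, gave 0.94 (adjusted p = 0.461), and 2 of 18 members of the IL-1 system were higher and 0 lower at a p below 0.05 before adjustment, against 4.31% and 6.33% of all genes. The median of the IL-1 system turned from -0.09 to 0.09 without HC replicates 3 and 4.

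Red cell genes varied widely among the HC libraries. The mean log2(FPKM + 0.1) of the red cell membrane list was 6.23 in HC replicate 3 and 4.03 to 4.85 in FC. HC replicate 4 lay within that FC range at 4.70, and HC replicates 1 and 2 below it at 3.78 and 3.60. Of 18 red cell membrane members 0 differed at a p below 0.05 before adjustment, against 6.33% of all genes lower and 4.31% higher. The median of -0.23 became 0.73 without HC replicates 3 and 4, when 18 of 18 were positive. The same shares of all genes stand beside the counts of the lists that follow. Hbb-bt, a beta globin left after depletion, was at 13400, 13300, 128000 and 68600 FPKM in HC and 11700 to 24900 in FC. The haem and globin list (0 of 15 members before adjustment) and the reticulocyte list (1 of 27 lower) had medians of -0.16 and -0.18 that became 0.45 and 0.54. Platelet genes gave a median of -0.15 and 1 of 24 members higher at a p below 0.05 before adjustment, and cytosolic ribosomal proteins -0.04 with 0 of 49 in either direction. These too turned without the same libraries, to 0.14 with 23 of 24 positive for platelets and 0.15 with 47 of 49 positive for ribosomal proteins.

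**Figure D3:**
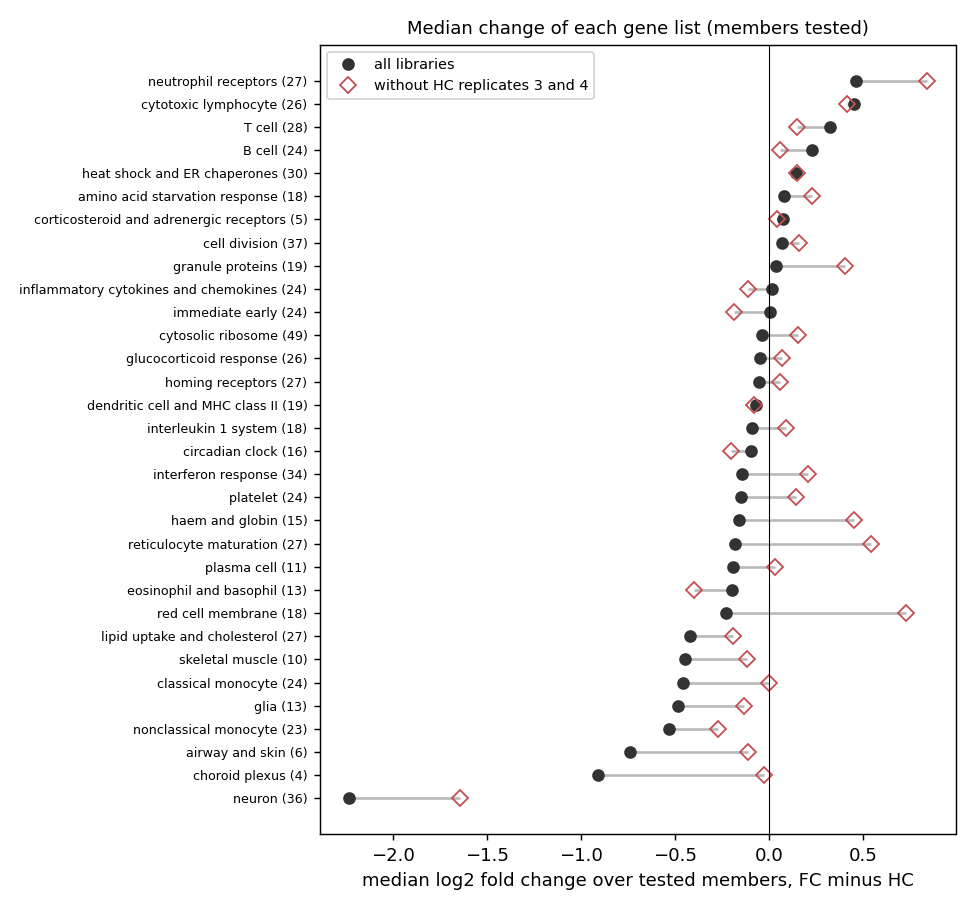
Median log2 fold change of FC minus HC over the tested members of each list, with all libraries (filled circles) and without HC replicates 3 and 4 (open diamonds); numbers in brackets are members tested. The red cell membrane list moves from -0.23 to 0.73 and the classical monocyte list from -0.46 to 0.00, while the neuron list moves from -2.23 to -1.64 and the cytotoxic list from 0.45 to 0.41. Of the 36 neuron members tested with all libraries, 12 reached the minimum in HC only.

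Of 26 genes that corticosteroids are known to regulate, 11 had a positive and 15 a negative log2 fold change, 2 were higher and 2 lower at a p below 0.05 before adjustment, against 4.31% and 6.33% of all genes (median -0.05, and 0.07 without HC replicates 3 and 4). Fkbp5, the cochaperone of the glucocorticoid receptor, was at 4.77, 4.33, 7.45 and 6.26 FPKM in HC and at 7.48, 6.53, 6.46, 7.45 and 7.51 in FC (0.34, SE 0.23, limma adjusted p = 0.657), and at 8.19 to 18.1 in Immo+FC. HC replicates 3 and 4 lay near the FC libraries, and without them the value was 0.63. Tsc22d3, or GILZ, gave -0.25 (adjusted p = 0.721, and 0.09 without these 2 libraries), Klf9 -0.74 (adjusted p = 0.367) and Arrdc3 0.46 (adjusted p = 0.309). Of 5 tested receptors and regulators 2 were lower and 0 higher before adjustment. The glucocorticoid receptor gene Nr3c1 gave 0.12 (adjusted p = 0.71, and 0.07 without them). Adrbk2, a kinase of G protein-coupled receptors, was at 2.73 to 4.57 FPKM in HC and 1.30 to 2.92 in FC (-1.11, SE 0.24, adjusted p = 0.109). The groups overlapped through HC replicate 1 and FC replicate 4.

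Of 30 heat shock and ER chaperone genes 5 were higher and 2 lower at a p below 0.05 before adjustment (median 0.14), against 4.31% and 6.33% of all genes. Hsp90ab1, a cytosolic HSP90, was at 261 to 298 FPKM in HC and 319 to 432 in FC (0.38, SE 0.11, adjusted p = 0.179). Sdf2l1, an ER chaperone cofactor, was at 12.6 to 15.4 FPKM in HC, 17.0 to 20.2 in FC and 20.3 to 39.3 in Immo+FC (FC minus HC 0.41, SE 0.18, adjusted p = 0.428). Neither gene overlapped between HC and FC. For the next lists the same background shares hold. Of 16 clock genes 2 were lower and 0 higher, among them the PAR bZIP factor Tef (-0.43, adjusted p = 0.23), without overlap. Of 24 immediate early genes 1 was higher and 3 lower, and the median of 0.00 was -0.19 without HC replicates 3 and 4. Of the 24, 1 reached the minimum in HC only, and the counts hold over the other 23. Egr3 was at 2.44, 1.65, 0.631 and 1 FPKM in HC and at 3.08, 2.25, 2.83, 2.08 and 2.88 in FC (0.97, SE 0.33, adjusted p = 0.26), and 0.35 without HC replicates 3 and 4. Dusp1, a phosphatase of MAP kinases, was at 45.7 to 97.3 FPKM in HC and 41.2 to 130 in FC (0.28, adjusted p = 0.839, and 0.03 without these 2 libraries). Of 37 cell division genes 3 were higher and 0 lower, with Diap3 at 0.89 (adjusted p = 0.23) and Smc2 at 0.66 (adjusted p = 0.192).

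Other genes with small p that belong to none of these lists were mostly higher in FC. Mgp, matrix Gla protein, was at 3.58, 3.85, 6.87 and 2.08 FPKM in HC and at 20.3, 11.6, 11.2, 22.4 and 13.6 in FC (1.98, SE 0.41, limma adjusted p = 0.108). Crispld2, a secreted cysteine-rich protein, was at 0.102 to 0.772 FPKM in HC, 1.13 to 2.79 in FC and 2.53 to 12.9 in Immo+FC (2.48, SE 0.52, adjusted p = 0.109). With an HC mean of 0.355 FPKM, Crispld2 reached the minimum in FC only, so it had to be higher there. Pglyrp2, which cleaves bacterial peptidoglycan, gave 0.63, Chst10, a sulfotransferase, 0.74, the endonuclease Mus81 0.60 and Rprd1b 0.45, each with an adjusted p of 0.108, and Mus81 0.34 without HC replicates 3 and 4. Morn2 gave 1.20, Fam110b 0.84 and Zscan22 0.77, each with an adjusted p of 0.109. All FC libraries lay above all HC libraries for every one of these 9. Kctd6 was lower without overlap (-0.72, adjusted p = 0.108).

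Several further genes were followed because the study named them, a choice made on these samples. Myo5a, the myosin of vesicle and melanosome transport, was at 3.60, 3.95, 4.17 and 4.39 FPKM in HC and at 2.77, 2.86, 2.61, 2.70 and 2.79 in FC (-0.53, SE 0.12, limma adjusted p = 0.114), and at 36.8 ± 6.31 in HC and 30.0 ± 1.28 in FC amygdala (SD, n = 6). The blood groups did not overlap. Nxpe4 gave -1.20 (adjusted p = 0.123), with HC replicates 1 to 4 at 6.12, 9.34, 19.5 and 15.1 FPKM beside 3.37 to 6.36 in FC. Zhx2, a zinc finger and homeobox repressor, was at 3.38 to 6.67 FPKM in HC and 7.42 to 10.1 in FC (0.68, SE 0.18, adjusted p = 0.129). Zbtb40 was at 1.21 to 2.02 FPKM in HC and 2.38 to 2.72 in FC (0.63, SE 0.16, adjusted p = 0.121). Both were separated without overlap, and Zhx2 gave 0.38 and Nxpe4 -0.62 without HC replicates 3 and 4. Plxnd1 (-0.77, adjusted p = 0.426), Pbrm1 (-0.52, adjusted p = 0.507), Dmxl2 (-0.56, adjusted p = 0.658) and Adam8 (0.72, adjusted p = 0.586) overlapped, each with HC replicate 3 the highest HC library, at 24.1 FPKM for the chromatin remodeling subunit Pbrm1 beside 7.07 to 9.95 in the others and 6.62 to 7.96 in FC. Without HC replicates 3 and 4 Plxnd1 gave -0.45, Dmxl2 -0.08 and Pbrm1 0.03.

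Of the other lists, interferon response genes had 1 of 34 members higher and 3 lower at a p below 0.05 before adjustment (median -0.14, and 0.20 without HC replicates 3 and 4), against 4.31% and 6.33% of all genes. Homing receptors had 2 of 27 in each direction, and inflammatory cytokines and chemokines 1 of 24 higher and 2 lower. Medians of these 2 lists turned without HC replicates 3 and 4, from -0.05 to 0.06 and from 0.01 to -0.11. Granule proteins had 0 higher and 1 of 19 lower, plasma cell genes 0 and 2 of 11 (median -0.19, and 0.03 without these libraries), and genes of eosinophils and basophils 1 and 2 of 13. Of those 13, 1 reached the minimum in FC only, and among the other 12, 0 were higher and 2 lower. The plasma cell list held 1 member that reached it in HC only, and the inflammatory list 1 in FC only. The counts of these 2 lists hold without them. Amino acid starvation genes had 1 of 18 higher and 0 lower, and the single tested pituitary hormone gene did not pass. For choroid plexus 4 of 12 listed genes reached the minimum, 1 of them in HC only, and no count is given. None of these lists had a member past the adjusted threshold.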

How the data were processed

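Blood was measured in 4 HC, 5 FC and 5 Immo+FC libraries, grouped by the labels, each a pool of 2 mice. The authors depleted globin transcripts, sequenced poly-A libraries in paired reads of 101 cycles, aligned them to mm10 with STAR 2.3 and computed the deposited FPKM values with Cufflinks and Cuffdiff 2.1.1, for each tissue separately. The deposited mapping table holds total counts of sequences, uniquely mapped counts and percent values from the authors. All 14 blood libraries were fitted together with limma 3.58.1 in R 4.3.3 on log2(FPKM + 0.1), with a variance trend, for genes at a mean of 0.5 FPKM or more over the 9 FC and HC libraries. Adjusted p values are by Benjamini-Hochberg over all tested genes. Fold changes on this scale understate those of low genes. Library measures were compared by exact permutation. Libraries of a group are separate pools of 2 mice by the study's methods. The genes named were, in each direction, those past the threshold or else with the smallest p at a mean of 1 FPKM, then the members of each list with the smallest p or highest mean and genes the study named. The members, 33 lists and tests were chosen with earlier results of these data known. The fit was tested on simulated data. Alternatives changed the pseudocount, minimum, scaling, fit and libraries. Promoters came from RefSeq, and gene coordinates from the GENCODE annotation of mm10. Some genes that this rule names are not reported here.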

Additional observations from a re-analysis of the deposited data

Results flagged for a closer look

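Single libraries stood apart from the rest of their group, by Dixon's criterion at 95%, in 19 of 178 groups examined (named genes and library measures, in HC and in FC). Chance alone gives about 1 in 20. HC replicate 3 accounted for 9 of them and HC replicate 4 for 5. In HC replicate 3 the neutrophil genes S100a8 (13800 FPKM, next 2740), Mmp9 (116, next 28.9), Cxcr2 (78.6, next 24.5) and Il1r2 (19.5, next 6.06) were high, as were Pbrm1 (24.1), Adam8 (21.3) and Diap3 (13.1), while Ms4a1 (107, next 214) and Tbx21 (4.71) were low.

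HC replicate 4 had 9081977 total sequences beside 18552641 in the next library, and stood apart for Nrgn (4010 FPKM), Tef (9.46), Prf1 (10.9, the lowest HC value) and Nr3c1 (9.49). HC replicate 1 stood apart for Zscan22 (1.32 FPKM). FC replicate 5 was the highest FC library for Snrpn,Snurf (2.84 FPKM, next 0.534) and Vpreb3 (140, next 110). FC replicate 2 was low for Cst7 (15.9 FPKM) and FC replicate 3 high for Zhx2 (10.1).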

How the results depend on the processing

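The 0 higher and 4 lower genes became 0 and 3 with a pseudocount of 0.01 or a minimum of 1 FPKM, 8 and 74 with a pseudocount of 1, 21 and 182 without a minimum, 5 and 6 with array weights, 0 and 2 in a fit of the 9 libraries alone, 1 and 2 with total sequences as a covariate, 0 and 1 with the neuron list as a covariate, and 0 and 4 with median-ratio scaling, quantile normalization, robust variances or the red cell list as a covariate. Leaving out 1 library gave 0 to 3 higher and 1 to 32 lower, with 3 and 32 without HC replicate 2 and 1 and 26 without FC replicate 5, and leaving out HC replicates 3 and 4 together, an alternative chosen after seeing the data, gave 0 and 1. The cause of these changes was not tested.

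With the replicate block the counts were 0 and 1. Same-numbered HC and FC libraries had deviations from their group means that correlated at 0.0166, 0.0698, -0.2193 and 0.001 over genes. Of 4 HC libraries, 0 correlated best with the FC library of their own number. Whether same-numbered libraries shared any handling cannot be told from 4 pairs.

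Lower genes were 59.5% of those at a p below 0.05 before adjustment, 50.1% with quantile normalization, 49.8% with array weights, 72.1% without a minimum, 46.4% with the neuron covariate and 30.9% without HC replicates 3 and 4. Of 2017 values of named genes under alternatives, 61 passed the threshold newly, 28 no longer did and 16 changed sign, none of these past the threshold with all libraries. Of 759 list medians 37 moved by more than the SD between replicates. With array weights Ly6c2 was at 0.12 and Hbb-bt at 0.0599. With the neuron covariate Snap25 was at 0.58, Ly6c2 at 0.45, Tsc22d3 at 0.0495, Dusp1 at -0.33 and Dmxl2 at 0.0746. Without HC replicates 3 and 4, Mbp was at 0.0337, Lyz2 at 0.0444, Ly6c2 at 0.26, Hbb-bt at 0.46, Tfrc at 0.007, Trak2 at 0.0935, Tsc22d3 at 0.0856 and Pbrm1 at 0.0329. Leaving out 1 library gave -0.48 to 0.0391 for Ly6c2, a difference in total sequences of 2086327 (without HC replicate 4) to 5759599, and one of -3.22 to 0.592 in the percent of reads mapped to a single place. The FPKM table gives no counts, so the counting error of low genes is unknown.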
